A study of Mus musculus with 6 samples.

Results

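The genes described here are 6 Wnt ligands, Wnt2, Wnt4, Wnt5a, Wnt7a, Wnt7b and Wnt11, and 4 target genes of canonical Wnt signalling, Axin2, Lef1, Nkd1 and Notum. They were chosen by symbol, and each of the 10 symbols occurs once among the 56884 genes of the count matrices. They were measured in 6 single-cell libraries of mouse lung and brain, 1 library per genotype, each made from cells of 2 pooled mice. Lungs at P21, depleted of CD45+ cells and erythrocytes, gave 4 libraries: a Bdnf pair (Bdnf lox/lox control beside Bdnf iPCKO) and an Hgf pair (Hgf lox/lox control beside Hgf iPCKO). The cerebral cortex at P12, taken without meninges and cleared of myelin debris, gave the Nodal pair (Nodal lox/lox control beside Nodal iPCKO). All animals carried the floxed allele of their pair and received 50 µg tamoxifen on each day from P1 to P3. In iPCKO mice the Pdgfrb(BAC)-CreERT2 transgene, which is active in mural cells (pericytes and smooth muscle cells) rather than in pericytes alone, removes the floxed gene, while controls lack CreERT2. Sex was not given per library. None of the genes described here was targeted, and the comparisons ask how Wnt genes stood in each cell type when pericytes had lost Bdnf, Hgf or Nodal.

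Wnt proteins are secreted, lipid-modified ligands that act over short distances. In the canonical branch they bind Frizzled receptors together with Lrp5 or Lrp6, β-catenin escapes destruction, enters the nucleus and switches on genes through TCF/LEF factors. Wnt2 is a mesenchymal ligand needed for lung specification, Wnt7a and Wnt7b act on brain endothelium through Adgra2 (Gpr124) and Reck to drive vessel ingrowth and the blood-brain barrier, and Wnt5a and Wnt11 are best known for branches that do not use β-catenin. Axin2 is a scaffold of the β-catenin destruction complex, Nkd1 binds Dishevelled, and Notum is a secreted enzyme that strips the lipid from Wnt proteins, so that these targets act as feedback inhibitors. Lef1 is itself a TCF/LEF factor and is also used by T lymphocytes.

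By position in GRCm39, Wnt2 lies on chromosome 6 from 17985468 to 18031892 (minus strand), Wnt4 on chromosome 4 from 137004373 to 137027037 (plus strand) and Wnt5a on chromosome 14 from 28226495 to 28249405 (plus strand). Wnt7a is on chromosome 6 from 91340959 to 91388460 (minus strand), Wnt7b on chromosome 15 from 85419638 to 85466674 (minus strand) and Wnt11 on chromosome 7 from 98484319 to 98504402 (plus strand). Among the targets, Axin2 is on chromosome 11 from 108811169 to 108841609 (plus strand), Lef1 on chromosome 3 from 130903919 to 131018005 (plus strand), Nkd1 on chromosome 8 from 89247890 to 89324577 (plus strand) and Notum on chromosome 11 from 120541446 to 120552019 (minus strand). Exons of an antisense gene overlap Wnt5a, Wnt7a, Wnt7b, Wnt11, Axin2, Lef1 and Notum in the annotation used for these positions (Gencode vM39). The stated counting settings name no strand option, and whether reads of the antisense partner were counted for these 7 genes was not checked. In this annotation no exon of another gene on the same strand overlaps an exon of any gene described here.

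The 250 bases before the start of the canonical transcript of the 4 targets are shown because TCF/LEF factors bind DNA at short elements, searched here on both strands as CTTTGAT and as CTTTGTT, and also as CTTTGAA and as CTTTGTA. The windows are chr11:108811388-108811637, plus strand for Axin2, chr8:89247675-89247924, plus strand for Nkd1, chr11:120552020-120552269, minus strand for Notum and chr3:130903669-130903918, plus strand for Lef1, all in GRCm39 and printed 5′ to 3′ on the strand of the gene. Capitals mark a match.
Axin2: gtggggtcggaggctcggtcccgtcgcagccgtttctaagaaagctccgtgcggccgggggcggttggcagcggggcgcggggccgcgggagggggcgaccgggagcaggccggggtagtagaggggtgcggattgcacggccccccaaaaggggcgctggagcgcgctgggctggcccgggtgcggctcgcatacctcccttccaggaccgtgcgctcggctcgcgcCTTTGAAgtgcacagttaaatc
Nkd1: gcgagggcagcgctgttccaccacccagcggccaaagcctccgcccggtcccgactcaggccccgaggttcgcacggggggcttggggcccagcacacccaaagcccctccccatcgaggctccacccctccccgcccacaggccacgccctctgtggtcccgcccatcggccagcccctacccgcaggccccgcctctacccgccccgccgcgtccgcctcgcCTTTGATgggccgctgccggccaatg
Notum: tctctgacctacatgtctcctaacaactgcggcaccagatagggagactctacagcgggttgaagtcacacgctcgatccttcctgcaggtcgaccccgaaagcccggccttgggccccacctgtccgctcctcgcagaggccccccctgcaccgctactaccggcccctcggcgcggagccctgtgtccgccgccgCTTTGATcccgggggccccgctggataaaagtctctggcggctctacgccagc
Lef1: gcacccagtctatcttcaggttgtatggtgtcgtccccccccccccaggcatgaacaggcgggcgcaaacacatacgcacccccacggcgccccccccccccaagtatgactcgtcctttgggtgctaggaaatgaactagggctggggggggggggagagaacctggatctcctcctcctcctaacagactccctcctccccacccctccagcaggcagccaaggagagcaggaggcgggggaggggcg
Axin2 has 1 match, CTTTGAA, which starts at position -22 from the transcription start. Nkd1 and Notum have 1 match each, CTTTGAT, at positions -26 and -53. No match occurs in the window of Lef1 or in those of the 6 ligands. Of 21757 promoters of the same length, 14.6% hold at least 1 of the 4 elements (2.85% CTTTGAT, 4.9% CTTTGTT, 4.84% CTTTGAA and 3.03% CTTTGTA). The matches describe letters in these windows and were not tied to any binding measurement.

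Cells were barcodes with at least 1500 UMIs (unique molecular identifiers, 1 per captured transcript), or 700 in the Hgf libraries, and were gated into types by sums of marker genes. The names end in -like for that reason. At least 20 cells were gated in 17 lung types of both Bdnf libraries, in 16 of both Hgf libraries (mesothelial-like cells were too few) and in 8 cortex types of each Nodal library. Kept barcodes numbered 16719 in Bdnf control and 23836 in Bdnf iPCKO lung (medians of 7166 and 5061.5 UMIs), 14013 and 15689 in the Hgf pair (3975 and 2850) and 3002 and 4676 in the Nodal pair (7979 and 8060). Between 1.80% and 18.04% of kept barcodes per library carried markers of another type as well (mixed barcodes) and were left out, with the larger share in the iPCKO library of each pair. Library pairs shared 20 to 431 kept barcodes, where independent draws would share 15.4 to 436.6. The cortex of Nodal iPCKO shared 97 barcodes with the Hgf control and 109 with the Hgf iPCKO lung, above the 71.8 and 80.4 of independent draws, and no comparison sets these libraries beside each other. In pericyte-like cells Bdnf was at 33.2 CPM (UMIs per 1000000 UMIs of the same cells) in control and 5.37 CPM in iPCKO lung, from 19 and 3 UMIs. Hgf was at 111 and 25.3 CPM (24 and 10 UMIs). Nodal had 185 UMIs in the control cortex and none in the iPCKO cortex, which allows up to 1.35 CPM. With 1 library per genotype no p-value was computed. Exact 95% intervals, given in parentheses, cover counting error only and not the spread between mice or libraries. Each value is a level per UMI of its type, so fewer transcripts per cell and more UMIs from other genes cannot be told apart.

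In the control lungs each ligand had its own pattern over cell types. Wnt2 belonged to alveolar fibroblast-like cells, with 102 CPM (88.6 to 117) in the Bdnf control and 88.8 CPM (64.3 to 119.7) in the Hgf control lung. The next types, lymphatic-like and mesothelial-like cells of the Bdnf control, were at 11.5 and 11.5 CPM, and barcodes with 20 to 200 UMIs, which hold mostly free RNA, were at 5.95 CPM. Wnt4 was highest in pericyte-like cells, at 59.4 CPM (41.2 to 83.1) and 92.4 CPM (56.4 to 143), followed by ciliated-like cells at 32.0 and 21.4 CPM. The intervals of these leading types did not overlap in either control lung. In the Hgf control, alveolar fibroblast-like cells came close to the ciliated level with 20.7 CPM from 10 UMIs.

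Wnt5a was highest in the mesenchyme of the lung. Myofibroblast-like cells held 936 CPM (907 to 966) in the Bdnf control and 1218 CPM (1076 to 1372) in the Hgf control. Adventitial fibroblast-like cells had 141 and 288 CPM, and mesothelial-like cells, present in the Bdnf libraries, had 146 CPM (109 to 192), which does not differ from the adventitial level of the same library beyond counting error. AT2-like cells, the surfactant-producing epithelium, were at 2.96 and 1.28 CPM, below the free RNA level of 24.8 and 9.87 CPM. The airway types held more, with 26.4 and 30.3 CPM in club-like cells and 11.2 CPM (7.34 to 16.5) and 62.7 CPM (50.7 to 76.8) in ciliated-like cells, which in the Hgf control came next after adventitial fibroblast-like cells, with pericyte-like cells (55.4 CPM) inside their interval. Wnt11 was shared between airway and mesenchyme. Ciliated-like cells had 139 CPM (124 to 155) and 171 CPM (151 to 193), and myofibroblast-like cells had 131 CPM (119.9 to 142) and 145 CPM (99.1 to 204), with overlapping intervals in both lungs.

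The paired ligands of the brain vasculature were epithelial in the lung. Wnt7a was found in AT1-like cells, the flat gas-exchange epithelium, at 43.7 CPM (39.9 to 47.7) and 61.99 CPM (54.5 to 70.2). Every other lung type was at 2.87 CPM or less, under the free RNA level of 6.50 and 5.15 CPM. Wnt7b was low throughout the lung. Ciliated-like cells led with 6.05 CPM (3.31 to 10.1) and 4.67 CPM (1.88 to 9.62), from 14 and 7 UMIs. Club-like, AT1-like and AT2-like cells lay between 1.03 and 4.66 CPM, with the club-like interval overlapping the ciliated-like in both lungs. Mesothelial-like cells had 2 UMIs, and 1 UMI was the most found in any endothelial-like, fibroblast-like or mural type of either control lung.

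In the control cortex Wnt7a and Wnt7b were astrocyte genes, with 84.7 CPM (78.1 to 91.8) and 33.7 CPM (29.5 to 38.2). Neuron-like cells had 4.60 and 16.6 CPM, and endothelial-like cells had 1 Wnt7a UMI and no Wnt7b UMI. Fibroblast-like cells were highest in Wnt4, at 99.3 CPM (82.7 to 118), and in Wnt5a, at 213 CPM (188 to 239.7). Wnt5a was also found in neuron-like cells (71.8 CPM), endothelial-like cells (37.0 CPM) and pericyte-like cells (36.6 CPM), of which the endothelial and pericyte intervals overlapped. Wnt11 reached 9.46 CPM in fibroblast-like cells. Wnt2 was nearly absent, with 2, 4 and 2 UMIs in neuron-like, endothelial-like and astrocyte-like cells and none elsewhere.

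**Figure D1:**
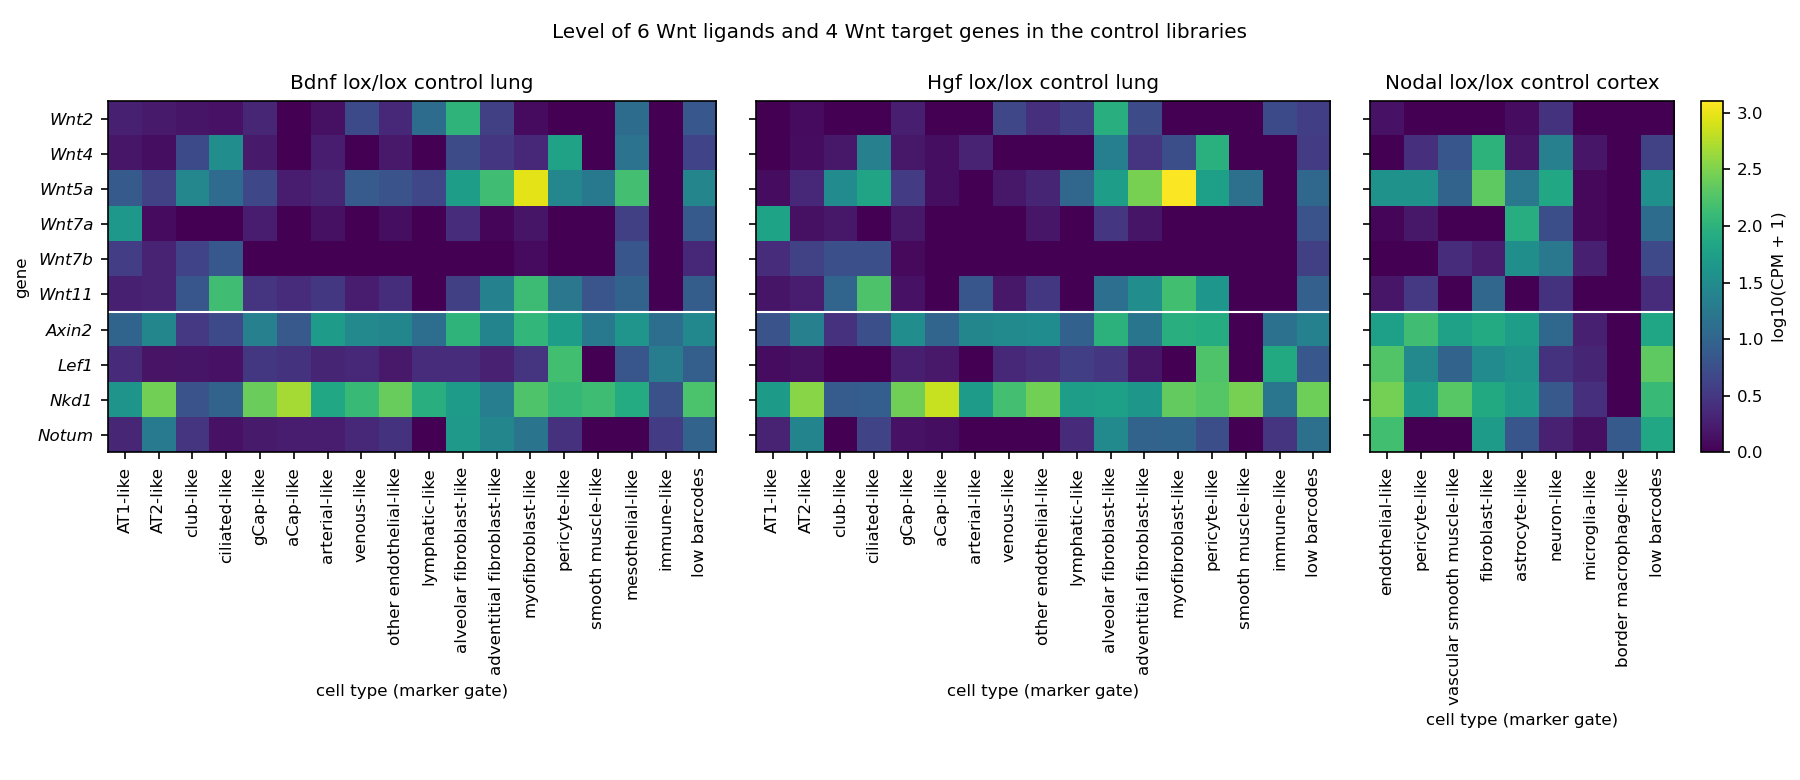
Level of each gene (rows) in each gated cell type (columns) of the 3 control libraries, as log10(CPM + 1), with barcodes of 20 to 200 UMIs as the last column and ligands above the line. Wnt2 and Wnt7a each stand out in 1 lung type (alveolar fibroblast-like and AT1-like cells) and Lef1 in pericyte-like and, in the Hgf control, immune-like cells, while Axin2 and Nkd1 are spread over most types.

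Of the targets, Axin2 and Nkd1 were found in most lung types and Lef1 and Notum in few. Axin2 had similar levels in myofibroblast-like cells (112 CPM, interval 102 to 123, and 90.5 CPM, interval 55.3 to 139.8) and alveolar fibroblast-like cells (103 CPM, interval 89.98 to 118, and 97.1 CPM, interval 71.3 to 129). With the processing described, it was the only one of the 10 genes whose highest type differed between the control lungs, within overlapping intervals, and under the processing alternatives 7 to 9 of the 10 genes had the same highest type in both lungs. Pericyte-like cells followed at 54.2 and 83.1 CPM. General capillary cells (gCap-like) had 21.1 and 31.9 CPM and aerocytes (aCap-like), the capillary cells apposed to AT1 cells, 6.35 and 9.21 CPM, so the capillary types differed in both lungs with intervals apart.

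Nkd1 had the reverse order in capillaries. It was highest in aCap-like cells, at 477 CPM (451 to 504) and 687 CPM (658 to 716), against 246 and 269 CPM in gCap-like cells and 278 and 357 CPM in AT2-like cells. Club-like and ciliated-like cells lay between 5.24 and 8.64 CPM in both lungs, under the 167 and 260.0 CPM of the free RNA barcodes. Notum was led by alveolar fibroblast-like cells, with 47.1 CPM (38.2 to 57.4) and 28.9 CPM (15.8 to 48.5). AT2-like cells were at 17.6 and 24.2 CPM, and in the Hgf control this was within the fibroblast interval. Endothelial-like cells of the lung, all subtypes pooled, had 0.982 and 0.237 CPM.

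Lef1 marked lung pericyte-like cells, at 143 CPM (114 to 178) and 176 CPM (124 to 241). Immune-like cells, which are the remainder after CD45 depletion, were next with 19.8 CPM (8 UMIs in 1 of 52 cells) and 76.4 CPM (39 UMIs in 7 of 93 cells), so few cells carried them. In AT2-like cells of the same libraries 0.288% and 0.0895% of cells had a Lef1 UMI, at median depths of 8569 and 4774 UMIs against 5076 and 3797 in immune-like cells. Every gated type of the control lungs other than these and mesothelial-like cells was at 2.73 CPM or less. In the control cortex the pattern was endothelial. Endothelial-like cells had 181 CPM (173 to 190.3) of Lef1, 279 CPM (268 to 289.8) of Nkd1 and 142 CPM (135 to 150.4) of Notum, the highest gated type for each. Axin2 was highest in pericyte-like cells of the cortex, at 141 CPM (124 to 159.6), with fibroblast-like, smooth muscle-like, endothelial-like and astrocyte-like cells between 53.7 and 77.2 CPM. Microglia-like cells had 1.61 CPM or less of each of the 10 genes.

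**Figure D2:**
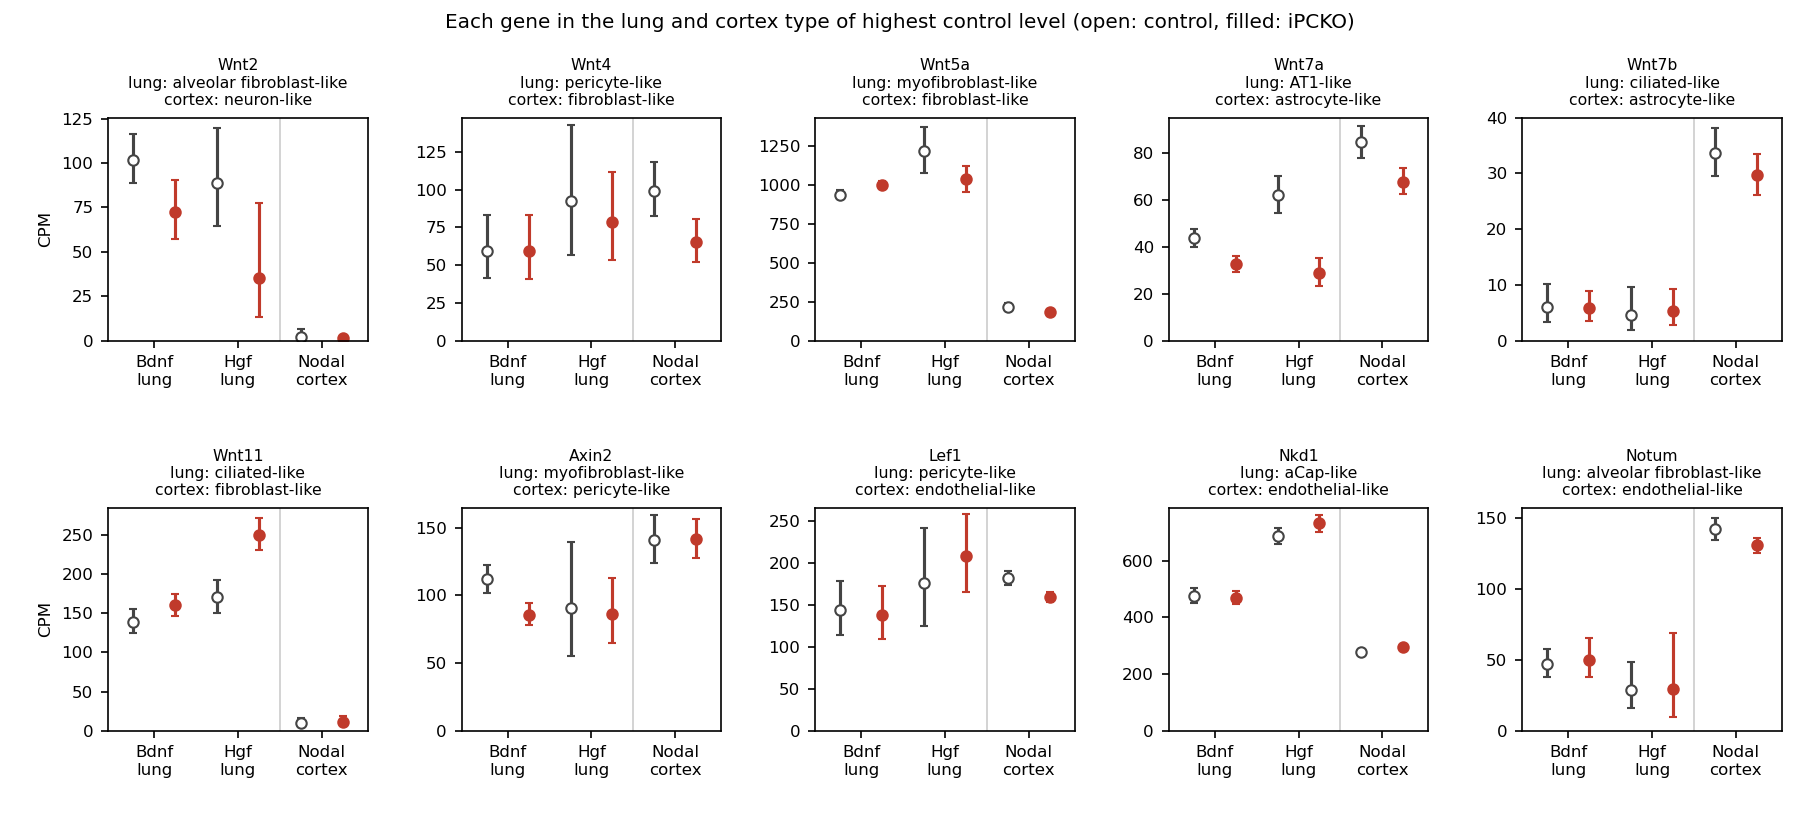
Level in CPM of each gene in the lung type and the cortex type where its control level was highest (the Bdnf control decides for the lung), with open circles for control and filled circles for iPCKO libraries and bars for exact Poisson 95% intervals. Wnt7a in AT1-like cells is lower in both iPCKO lungs, while Nkd1 in aCap-like cells of the Bdnf pair (477 and 469 CPM) and Axin2 in cortex pericyte-like cells (141 and 141 CPM) stay within their control intervals.

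In the Bdnf pair most values were within 2-fold of the control. A gene and cell type combination was compared when it had at least 20 UMIs over both libraries, and a value past 2-fold means a log2 ratio of iPCKO over control of at least 1 in size. Of 81 combinations compared, 11 were past 2-fold higher and 1 lower in Bdnf iPCKO lung. Over all genes 3.92% of combinations were past 2-fold higher and 2.49% lower, 6.41% either way. Ligands gave 8 of 39 higher and 1 lower, targets 3 of 42 higher and none lower, and the median log2 ratio over the 81 was 0.04. The interval lay above 0 in 19 combinations and below 0 in 12. No share over all genes stands beside these interval counts, so they do not tell whether these genes differ from other genes.

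Wnt11 held 4 of the 11 higher values. In alveolar fibroblast-like cells it was at 2.88 CPM in control and 15.8 CPM in iPCKO (6 and 17 UMIs), a log2 ratio of 2.46 (1.05 to 4.09). Arterial-like cells had 2.22 and 7.15 CPM, a log2 ratio of 1.69 (0.33 to 3.29). The ratios were 1.14 (-0.01 to 2.39) in AT1-like and 1.02 (0.33 to 1.75) in club-like cells. Where Wnt11 was high it moved little, with ratios of 0.20 (0.00 to 0.41) in ciliated-like and 0.02 (-0.15 to 0.18) in myofibroblast-like cells. Markers of the high types moved with the values of 3 of these types. In alveolar fibroblast-like cells the 6 myofibroblast markers summed to 231 CPM in control and 524 CPM in iPCKO cells, with 6 of 6 found in both, in arterial-like cells the 6 myofibroblast markers summed to 28.5 CPM in control and 66.1 CPM in iPCKO cells, with 5 and 6 of 6 found (Fgf18 at 0 in control), and in club-like cells the 9 ciliated markers summed to 193 CPM in control and 244 CPM in iPCKO cells, with 9 of 9 found in both. Their part in the Wnt11 values was not tested.

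Wnt5a in AT2-like cells had 155 UMIs in control and 327 in iPCKO, or 2.96 and 7.52 CPM, a log2 ratio of 1.35 (1.07 to 1.63). Both levels are below the free RNA barcodes of their libraries (24.8 and 32.2 CPM), and the 6 myofibroblast markers summed to 79.1 CPM in control and 118 CPM in iPCKO cells, with 6 of 6 found in both, whose part in this value was not tested. After subtraction of estimated free RNA the ratio was 2.12. In its main source, myofibroblast-like cells, Wnt5a was at 936 and 999.9 CPM, a log2 ratio of 0.09 (0.03 to 0.16). Alveolar fibroblast-like and pericyte-like cells had ratios of 0.90 (0.51 to 1.30) and 0.93 (-0.02 to 1.94).

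Wnt2 differed in opposite directions by type. Alveolar fibroblast-like cells went from 102 CPM in control to 72.6 CPM in iPCKO, a log2 ratio of -0.49 (-0.88 to -0.11). In these cells their own 7 markers summed to 14331 CPM in control and 10758 CPM in iPCKO, and the part of this in the Wnt2 value was not tested. Over all fibroblast-like cells the ratio was -1.34 (-1.71 to -0.98). The pooled value also follows how many cells each fibroblast type has, and alveolar fibroblast-like cells numbered 481 in control and 324 in iPCKO. Adventitial fibroblast-like cells, with 22 and 8 UMIs, had the only value past 2-fold lower outside the pooled types, -1.34 (-2.72 to -0.12). Venous-like endothelium was higher, from 4.03 to 11.5 CPM (16 and 53 UMIs), a log2 ratio of 1.51 (0.68 to 2.41). In venous-like cells the 7 alveolar fibroblast markers summed to 154 CPM in control and 171 CPM in iPCKO cells, with 7 and 6 of 7 found (Slc27a6 at 0 in iPCKO), and their part was not tested.

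Wnt7a in AT1-like cells was lower, at 32.7 CPM (29.3 to 36.3) against 43.7 CPM (39.9 to 47.7), a log2 ratio of -0.42 (-0.62 to -0.22). In AT2-like cells its 12 and 21 UMIs gave 1.08 (-0.01 to 2.23), and there the 8 AT1 markers summed to 875 CPM in control and 1019 CPM in iPCKO cells, with 8 of 8 found in both, whose part was not tested. Wnt4 did not move in pericyte-like cells beyond counting error, at -0.01 (-0.75 to 0.72), and had 16 and 41 UMIs in adventitial fibroblast-like cells, a log2 ratio of 1.47 (0.61 to 2.41). In these cells the 10 pericyte markers summed to 142 CPM in control and 223 CPM in iPCKO cells, with 9 and 9 of 10 found (Higd1b at 0 in control, Higd1b at 0 in iPCKO), and their part was not tested. For Wnt7b no combination was past 2-fold, with ratios from -0.58 in AT2-like to 0.33 in AT1-like cells.

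Among the targets Axin2 was higher in capillary and pericyte-like cells and lower in arterial-like cells. In aCap-like cells it was at 6.35 CPM in control and 14.6 CPM in iPCKO (17 and 50 UMIs), a log2 ratio of 1.20 (0.38 to 2.09). The ratios were 0.67 (0.39 to 0.95) in gCap-like, 0.94 (0.28 to 1.62) in pericyte-like and 0.66 (0.29 to 1.04) in AT1-like cells, and -0.61 (-1.01 to -0.22) in arterial-like and -0.38 (-0.58 to -0.19) in myofibroblast-like cells. AT2-like cells, the type with the most Axin2 UMIs at 1319 and 1125, gave 0.04 (-0.08 to 0.15). In aCap-like cells the 8 AT1 markers summed to 1495 CPM in control and 2534 CPM in iPCKO cells, with 8 of 8 found in both. AT1-like cells themselves held 9.02 and 14.3 CPM of Axin2. The 7 markers of alveolar fibroblast-like cells, a type high in Axin2, summed to 4283 CPM in control and 3987 CPM in iPCKO aCap-like cells. The part of both lists in the Axin2 value was not tested.

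Lef1 in pericyte-like cells stood at 143 and 138 CPM, a log2 ratio of -0.06 (-0.53 to 0.41). Its value past 2-fold, 1.03 (0.25 to 1.84) in AT2-like cells, rests on levels of 0.439 and 0.897 CPM, and in these cells the 10 pericyte markers summed to 37.5 CPM in control and 43.0 CPM in iPCKO cells, with 10 of 10 found in both. Median-of-ratios scaling put it at 0.997, just short of 2-fold, and after subtraction of estimated free RNA, which leaves no Lef1 in the control cells, it was 3.14 against the floor of 3 UMIs. Notum had 13 and 33 UMIs in AT1-like cells, a log2 ratio of 1.41 (0.45 to 2.46), and -0.89 (-1.51 to -0.28) in myofibroblast-like cells. In AT1-like cells the 9 AT2 markers summed to 1207 CPM in control and 1856 CPM in iPCKO cells, with 9 of 9 found in both. The part of these markers in the Lef1 and Notum values was not tested. In alveolar fibroblast-like cells, its main source, the ratio was 0.09 (-0.41 to 0.59). Nkd1 was past 2-fold in no type and had ratios of -0.03 (-0.13 to 0.08) in aCap-like and -0.03 (-0.06 to 0.01) in AT2-like cells. When mixed barcodes were kept, the ratios fell below 2-fold for Axin2 in aCap-like (0.82), Notum in AT1-like (0.43), Wnt11 in club-like (0.41) and Wnt7a in AT2-like cells (0.13). Subtraction of estimated free RNA put Wnt11 in AT1-like cells at 0.58.

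In the Hgf pair the background was wider. Of 52 combinations compared, 10 were past 2-fold higher and 7 lower in Hgf iPCKO lung, against 7.09% and 7.73% of all gene and cell type combinations and 14.8% either way. Ligands gave 4 higher and 5 lower of 21, and targets gave 6 higher and 2 lower of 31. The median log2 ratio over the 52 was 0.23, and the interval lay above 0 in 22 and below 0 in 10. These interval counts too have no share over all genes beside them.

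The ligands that mark the alveolar fibroblast-like and AT1-like cells were lower. Wnt2 had 43 UMIs in 211 control and 6 in 117 iPCKO alveolar fibroblast-like cells, or 88.8 and 35.5 CPM, a log2 ratio of -1.32 (-2.85 to -0.08). In these cells their own 7 markers summed to 16436 CPM in control and 12909 CPM in iPCKO, and the part of this in the Wnt2 value was not tested. Wnt7a in AT1-like cells was at 61.99 CPM (54.5 to 70.2) in control and 28.9 CPM (23.3 to 35.4) in iPCKO, a log2 ratio of -1.10 (-1.46 to -0.75), with no overlap of the intervals. Wnt5a was lower in adventitial fibroblast-like cells (288 to 131 CPM, -1.14, interval -1.51 to -0.79) and in ciliated-like cells (62.7 to 18.6 CPM, -1.75, interval -2.30 to -1.22). The Bdnf control lung had 141 and 11.2 CPM in these types, so the Hgf iPCKO values lay nearer to it than to the Hgf control, and the ciliated-like levels of the control lungs differed by more than the Hgf pair did. In myofibroblast-like cells the ratio was -0.23 (-0.44 to -0.02). In ciliated-like cells the 8 adventitial fibroblast markers summed to 49.4 CPM in control and 50.9 CPM in iPCKO cells, with 5 and 5 of 8 found (Lum, Ccl11 and Clec3b at 0 in control, Dpt, Lum and Ccl11 at 0 in iPCKO), and the 6 myofibroblast markers summed to 2.00 CPM in control and 2.90 CPM in iPCKO cells, with 2 and 4 of 6 found (Aspn, Fgf18, Hhip and Egfem1 at 0 in control, Fgf18 and P2ry14 at 0 in iPCKO). The part of both lists in the ciliated-like value was not tested. In adventitial fibroblast-like cells the 7 alveolar fibroblast markers summed to 1764 CPM in control and 3220.1 CPM in iPCKO cells, with 7 and 5 of 7 found (Slc27a6 and Fgfr4 at 0 in iPCKO), and only 145 iPCKO against 291 control cells were gated there. The own 8 markers of adventitial fibroblast-like cells summed to 9801 CPM in control and 5366 CPM in iPCKO cells. The part of both lists in the Wnt5a value was not tested.

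Wnt7b differed in opposite directions between the alveolar epithelial types. AT1-like cells had 6 UMIs in control and 31 in iPCKO, or 1.51 and 9.63 CPM, a log2 ratio of 2.68 (1.39 to 4.23). AT2-like cells had 82 and 11 UMIs, or 2.99 and 0.7496 CPM, a log2 ratio of -1.998 (-3.06 to -1.08). In AT1-like cells the 9 AT2 markers summed to 1148 CPM in control and 1103 CPM in iPCKO cells, with 9 of 9 found in both. In AT2-like cells the 8 AT1 markers summed to 1209 CPM in control and 1212 CPM in iPCKO cells, with 8 of 8 found in both. The part of these markers was not tested, nor that of ciliated-like and club-like cells, where Wnt7b was highest in the Hgf control (4.67 and 4.66 CPM). In the Bdnf pair the same cells gave 0.33 (-0.41 to 1.08) and -0.58 (-1.27 to 0.09). The Bdnf control lung had 1.03 CPM of Wnt7b in AT2-like cells, nearer to the Hgf iPCKO than to the Hgf control value. In AT1-like cells it had 2.65 CPM, nearer to the Hgf control value.

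Wnt4 and Wnt11 were higher in club-like cells, a secretory airway type. Wnt4 had 1 UMI in control and 19 in iPCKO, a log2 ratio of 3.37 (0.72 to 8.75), and Wnt11 had 9.32 and 26.3 CPM, a log2 ratio of 1.496 (0.71 to 2.37). Both were found in ciliated-like cells, and in club-like cells the 9 ciliated markers summed to 169 CPM in control and 619 CPM in iPCKO cells, with 9 of 9 found in both. Wnt4 was higher in pericyte-like cells (92.4 and 78.5 CPM) than in ciliated-like cells (21.4 and 38.9 CPM), and the part of pericyte transcripts was not tested. The free RNA barcodes of these libraries also held more of both, 2.58 and 7.89 CPM of Wnt4 and 8.01 and 23.4 CPM of Wnt11. The part of ciliated markers and free RNA in the club-like values was not tested beyond the subtraction of estimated free RNA, after which both stayed past 2-fold. In ciliated-like cells themselves the ratios were 0.87 (0.27 to 1.49) for Wnt4 and 0.55 (0.34 to 0.77) for Wnt11. Wnt11 in adventitial fibroblast-like cells was at 32.0 and 118 CPM, a log2 ratio of 1.89 (1.37 to 2.41), in the same cells where Wnt5a was lower. There the 9 ciliated markers summed to 7.62 CPM in control and 23.3 CPM in iPCKO cells, with 7 and 7 of 9 found (Foxj1 and Ccdc113 at 0 in control, Ccdc153 and Rsph1 at 0 in iPCKO), and the 6 myofibroblast markers summed to 1149 CPM in control and 1134 CPM in iPCKO cells, with 6 and 4 of 6 found (Fgf18 and Egfem1 at 0 in iPCKO), and their part was not tested. Wnt4 in pericyte-like cells gave -0.23 (-1.09 to 0.65).

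Axin2 was higher in capillary endothelium. It was at 31.9 CPM (27.1 to 37.3) in control and 67.0 CPM (60.6 to 73.8) in iPCKO gCap-like cells, a log2 ratio of 1.07 (0.80 to 1.34). In aCap-like cells it had 9.21 and 25.1 CPM, 1.45 (0.82 to 2.11), and in AT1-like cells 5.27 and 13.7 CPM, 1.37 (0.59 to 2.20). Arterial-like cells gave -0.11 (-0.90 to 0.70) and venous-like cells 0.28 (-0.24 to 0.82). Lef1 in gCap-like cells had 4 UMIs in control and 32 in iPCKO, a log2 ratio of 2.71 (1.21 to 4.67) at levels of 0.807 and 5.26 CPM. In the same cells the 10 pericyte markers summed to 99.9 CPM in control and 159.8 CPM in iPCKO cells, with 10 of 10 found in both, and Lef1 of pericyte-like cells themselves was at 176 and 208 CPM. In aCap-like cells the 8 AT1 markers summed to 2448 CPM in control and 3890.3 CPM in iPCKO cells, with 8 of 8 found in both. The part of pericyte and AT1 markers in these values was not tested. Axin2 was highest in alveolar fibroblast-like (97.1 CPM) and myofibroblast-like cells (90.5 CPM) of the Hgf control. The part of their transcripts was not tested either.

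Nkd1 was higher in both alveolar epithelial types, with 47.4 and 107 CPM in AT1-like cells (1.18, interval 0.92 to 1.44) and 357 and 626 CPM in AT2-like cells (0.81, interval 0.77 to 0.85). Arterial-like cells had 50.7 and 110.4 CPM, 1.12 (0.66 to 1.61), and gCap-like cells gave 0.55 (0.45 to 0.65), while aCap-like cells, the highest type, gave 0.09 (0.01 to 0.18). Myofibroblast-like cells were lower, from 226 to 106 CPM, -1.10 (-1.65 to -0.54), against a median of 0.11 over all genes of these cells. Their own 6 markers summed to 17020 CPM in 94 control cells and 10508 CPM in 349 iPCKO cells. The part of this in the Nkd1 value was not tested. Markers of aCap cells, where Nkd1 was highest, were summed in 4 of these types. In AT1-like cells the 7 aCap markers summed to 148 CPM in control and 217 CPM in iPCKO cells, with 7 of 7 found in both, in AT2-like cells the 7 aCap markers summed to 81.3 CPM in control and 93.8 CPM in iPCKO cells, with 7 of 7 found in both, in arterial-like cells the 7 aCap markers summed to 218 CPM in control and 330.4 CPM in iPCKO cells, with 6 and 7 of 7 found (Chst1 at 0 in control), and in myofibroblast-like cells the 7 aCap markers summed to 846 CPM in control and 603 CPM in iPCKO cells, with 4 and 5 of 7 found (Car4, Apln and Chst1 at 0 in control, Apln and Chst1 at 0 in iPCKO). Their part in the Nkd1 values was not tested. Notum in AT2-like cells gave -0.23 (-0.43 to -0.03). Lef1 in immune-like cells was at 76.4 and 24.9 CPM, -1.61 (-2.58 to -0.72), but the UMIs came from 7 cells in each library, and a stricter marker gate turned the ratio to 0.62. With mixed barcodes kept, Axin2 in gCap-like (0.99), Wnt11 in club-like (0.95) and Wnt2 in alveolar fibroblast-like cells (-0.94) ended short of 2-fold, and Wnt4 in club-like cells was at 1.04. Wnt2 in alveolar fibroblast-like cells ranged from -0.78 with a lower minimum of UMIs per cell to -3.11 with 2 times the minimum.

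Set side by side, the lung pairs have no library in common, yet they share the design and the lists, and the difference between them was not tested. Wnt7a in AT1-like cells was lower in both, at -0.42 and -1.10 on the log2 scale, and so was Wnt2 in alveolar fibroblast-like cells, at -0.49 and -1.32. The own markers of alveolar fibroblast-like cells were also lower in both iPCKO lungs (14331 to 10758 and 16436 to 12909 CPM). Those of AT1-like cells were higher in both (20493 to 22990 and 29638 to 31236 CPM). The part of own markers in these values was not tested. Axin2 was higher in both pairs in gCap-like (0.67 and 1.07), aCap-like (1.20 and 1.45) and AT1-like cells (0.66 and 1.37). Own markers of gCap-like cells were lower in both iPCKO lungs (5040 to 4021 and 5910 to 4481 CPM). So were those of aCap-like cells (8857 to 8125 and 10439 to 9230 CPM). Their part in the Axin2 values was not tested. Nkd1 in AT2-like cells stood at -0.03 and 0.81.

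**Figure D3:**
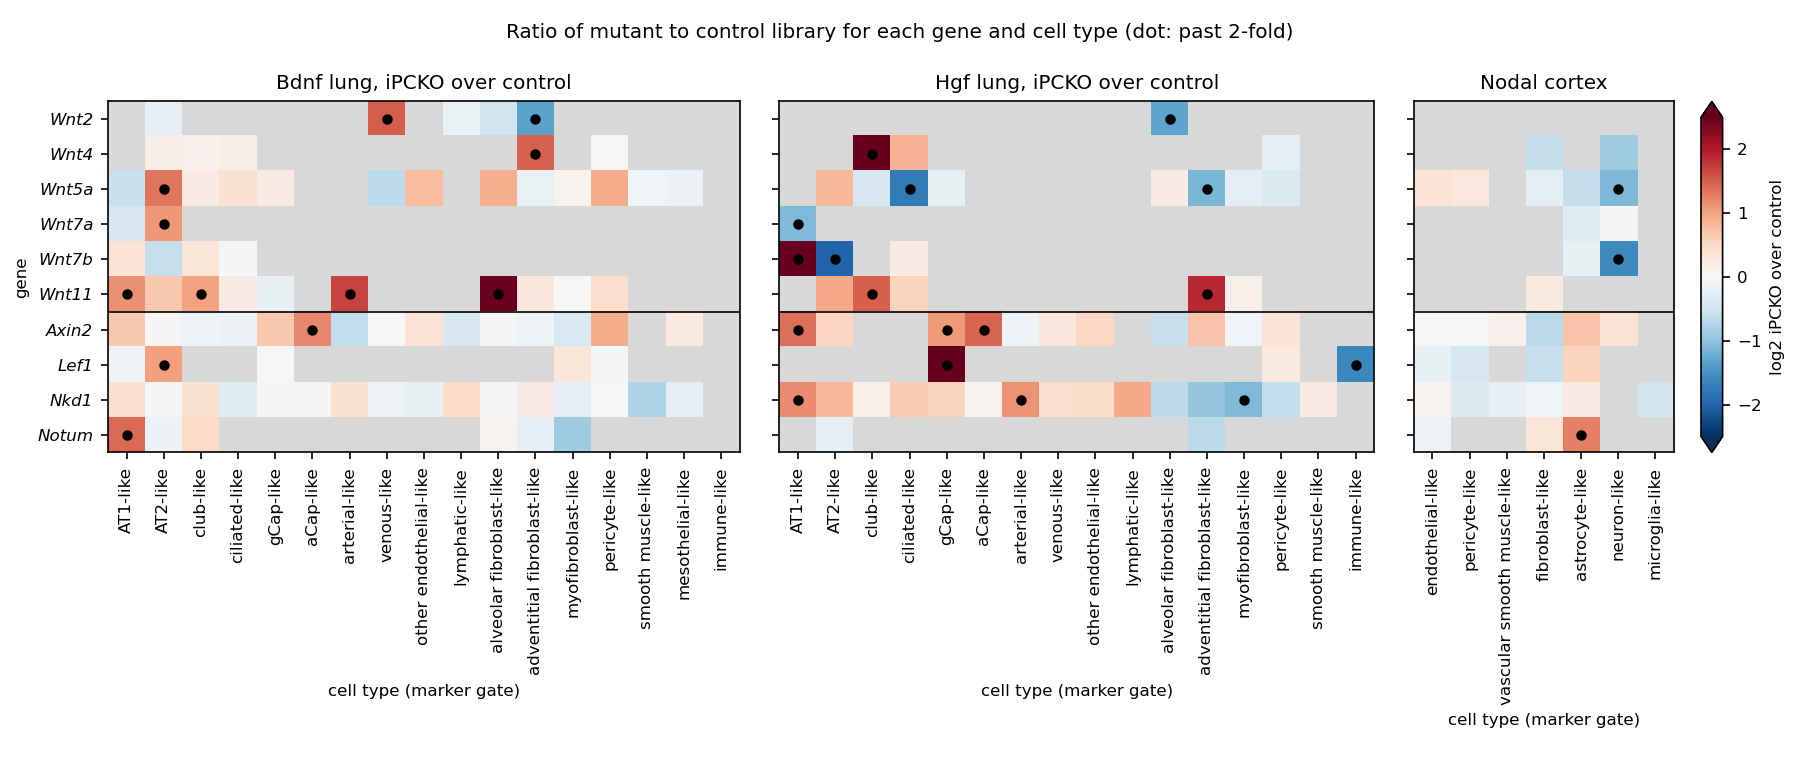
Log2 ratio of iPCKO over control for each gene (rows, ligands above the line) and gated cell type (columns) in the Bdnf lung, Hgf lung and Nodal cortex pairs, with grey for combinations under 20 UMIs and dots for values past 2-fold. Dots number 12, 17 and 3, and colours are cut at the ends of the scale (Wnt4 in Hgf club-like cells is at 3.37).

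In the Nodal pair of the cortex, of 31 combinations compared, 1 was past 2-fold higher and 2 lower in Nodal iPCKO, against 2.6% and 2.99% over all genes and 5.59% either way. Both lower values were ligands (2 of 12) and the higher value was a target (1 of 19). The median log2 ratio over the 31 was -0.12, with the interval above 0 in 6 and below 0 in 9. For these interval counts no share over all genes is given.

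Astrocyte-like cells, the source of Wnt7a and Wnt7b, had 84.7 CPM (78.1 to 91.8) of Wnt7a in control and 67.8 CPM (62.4 to 73.6) in iPCKO, a log2 ratio of -0.32 (-0.49 to -0.16). Wnt7b was at 33.7 and 29.7 CPM there, -0.18 (-0.44 to 0.08). The ligands past 2-fold lower were both in neuron-like cells, Wnt5a at 71.8 and 33.0 CPM (-1.12, interval -1.53 to -0.70) and Wnt7b at 16.6 and 5.46 CPM (-1.60, interval -2.55 to -0.62). Wnt5a UMIs came from 13 control and 26 iPCKO cells, or 22.4% (12.5 to 35.3) and 14.1% (9.44 to 20.0) of them. Wnt7b UMIs came from 12 and 19 cells, or 20.7% (11.2 to 33.4) and 10.3% (6.33 to 15.7). Both pairs of shares had overlapping intervals. The intervals of the ratios do not cover such gathering of UMIs in few cells. Only 58 control and 184 iPCKO cells were neuron-like, and in them the 6 fibroblast markers summed to 23.9 CPM in control and 8.07 CPM in iPCKO cells, with 4 and 5 of 6 found (Lum and Slc6a13 at 0 in control, Lum at 0 in iPCKO). For astrocytes, where Wnt7b was highest, the 9 astrocyte markers summed to 544 CPM in control and 661 CPM in iPCKO cells, with 9 of 9 found in both. The part of both lists was not tested. Fibroblast-like cells had 99.3 and 65.3 CPM of Wnt4, -0.61 (-1.02 to -0.20), and 213 and 182 CPM of Wnt5a, -0.23 (-0.48 to 0.03). In endothelial-like cells Wnt5a was at 37.0 and 47.0 CPM, 0.34 (0.16 to 0.53).

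The endothelial targets stayed close to the control. Endothelial-like cells had 181 and 159 CPM of Lef1 (-0.19, interval -0.28 to -0.10), 279 and 295 CPM of Nkd1 (0.08, interval 0.01 to 0.15), 142 and 131 CPM of Notum (-0.12, interval -0.22 to -0.02) and 54.8 and 54.9 CPM of Axin2 (0.00, interval -0.15 to 0.16). Pericyte-like cells, in which Nodal was lost, had 141 CPM (124 to 159.6) and 141 CPM (128 to 156) of Axin2.

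In astrocyte-like cells the ratios of all 4 targets were above 0, and only Notum was past 2-fold. Axin2 was at 53.7 CPM (48.5 to 59.4) in control and 87.5 CPM (81.3 to 94.01) in iPCKO, a log2 ratio of 0.70 (0.52 to 0.88) without overlap of the intervals. Nkd1 was at 51.1 and 58.9 CPM (0.21, interval 0.01 to 0.40), Lef1 at 39.4 and 57.8 CPM (0.55, interval 0.34 to 0.77) and Notum at 5.75 and 13.8 CPM (1.27, interval 0.74 to 1.82). Lef1, Nkd1 and Notum were highest in endothelial-like cells of this tissue, and the free RNA barcodes held 212 and 202 CPM of Lef1 and 71.6 and 66.0 CPM of Notum. In astrocyte-like cells the 8 endothelial markers summed to 38.9 CPM in control and 46.3 CPM in iPCKO cells, with 8 of 8 found in both, and their part was not tested. After subtraction of estimated free RNA, astrocyte-like cells held 5.19 and 13.2 CPM of Notum and 53.2 and 86.9 CPM of Axin2. Fibroblast-like cells had 77.2 and 48.2 CPM of Axin2, a log2 ratio of -0.68 (-1.16 to -0.21). Types with at least 20 cells in 1 library only, border macrophage-like cells of the control and oligodendrocyte precursor-like cells of the iPCKO, were not compared. The latter held 69.3 CPM of Wnt4 from 10 UMIs.

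Vascular and fibroblast types were set beside each other in the control lungs and the control cortex. Tissue, age, dissociation and library differ together here and cannot be told apart, and the background is wide, with 42.5% of genes past 2-fold in endothelial-like, 36.6% in pericyte-like, 31.2% in smooth muscle-like and 35% in fibroblast-like cells against the Bdnf control lung, and 38.6%, 31.4%, 32.2% and 32.3% against the Hgf control lung. Both comparisons use the same cortex library. Against the Bdnf control, 4 genes were past 2-fold higher and 2 lower in the cortex of 7 compared in endothelial-like cells, 1 higher and 3 lower of 5 in pericyte-like, 1 higher of 2 in smooth muscle-like and 4 higher and 1 lower of 8 in fibroblast-like cells. Against the Hgf control these were 4 higher of 5, 3 lower of 5, 1 higher of 2, and 4 higher and 1 lower of 7.

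In endothelial-like cells Notum was at 142 CPM in the cortex and 0.982 and 0.237 CPM in the lungs, log2 ratios of cortex over lung of 7.18 (6.56 to 7.88) and 9.23 (7.68 to 11.51). Lef1 was at 181 against 1.64 and 0.8697 CPM, 6.79 (6.31 to 7.32) and 7.70 (6.86 to 8.71). Wnt2 and Wnt11 were lower in the cortex against the Bdnf control, at -1.80 (-3.76 to -0.30) from 32 lung and 4 cortex UMIs and -1.65 (-3.35 to -0.29) from 36 and 5 UMIs, and had too few UMIs to be compared with the Hgf control. Axin2 and Wnt5a were higher in the cortex, with Axin2 at 1.14 (0.96 to 1.32) and 1.12 (0.91 to 1.33) and Wnt5a at 3.27 (2.92 to 3.64) and 4.87 (4.15 to 5.69). Nkd1, in contrast, was at 279 CPM against 228 and 340.4 CPM, and its ratios had opposite signs, 0.29 (0.22 to 0.36) and -0.29 (-0.36 to -0.22). The median over all genes in these cells was -0.23 against either lung.

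Pericyte-like cells showed the opposite pattern for Lef1. It was at 28.0 CPM in the cortex against 143 and 176 CPM in the lungs, -2.35 (-2.89 to -1.83) and -2.65 (-3.29 to -1.99). Wnt4, with 3 UMIs in 283 cortex pericyte-like cells, gave -5.11 (-7.46 to -3.44) and -5.75 (-8.14 to -4.00), and Nkd1 gave -1.23 (-1.71 to -0.74) and -1.94 (-2.496 to -1.37). Axin2 was higher in cortex pericyte-like cells, 1.38 (0.84 to 1.97) and 0.76 (0.07 to 1.54), the Hgf value being short of 2-fold. Fibroblast-like cells of the cortex, set beside adventitial fibroblast-like cells, held more Wnt4, 99.3 against 2.06 and 2.03 CPM, with ratios of 5.59 (4.84 to 6.44) and 5.61 (4.22 to 7.51). Lef1 gave 5.05 (3.87 to 6.46) and 5.88 (3.32 to 11.22) and Axin2 1.68 (1.31 to 2.04) and 2.34 (1.74 to 2.98), while Wnt11 was lower, -1.23 (-2.21 to -0.39) and -1.76 (-2.78 to -0.85). In these cells the median over all genes was 0.26 and 0.34. Axin2 in smooth muscle-like cells was at 57.7 CPM in the cortex and 16.9 CPM in the Bdnf control, 1.77 (0.70 to 2.999), and had no UMI in the Hgf control. The medians over all genes of smooth muscle-like cells were 0.10 and 0.22 against the Bdnf and the Hgf control. Against the floor of 3 UMIs of the Hgf control library Axin2 was at least 2.95-fold higher in the cortex, and the interval of the ratio, which takes in the counting error of both libraries, starts at a log2 of 1.19.

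**Figure D4:**
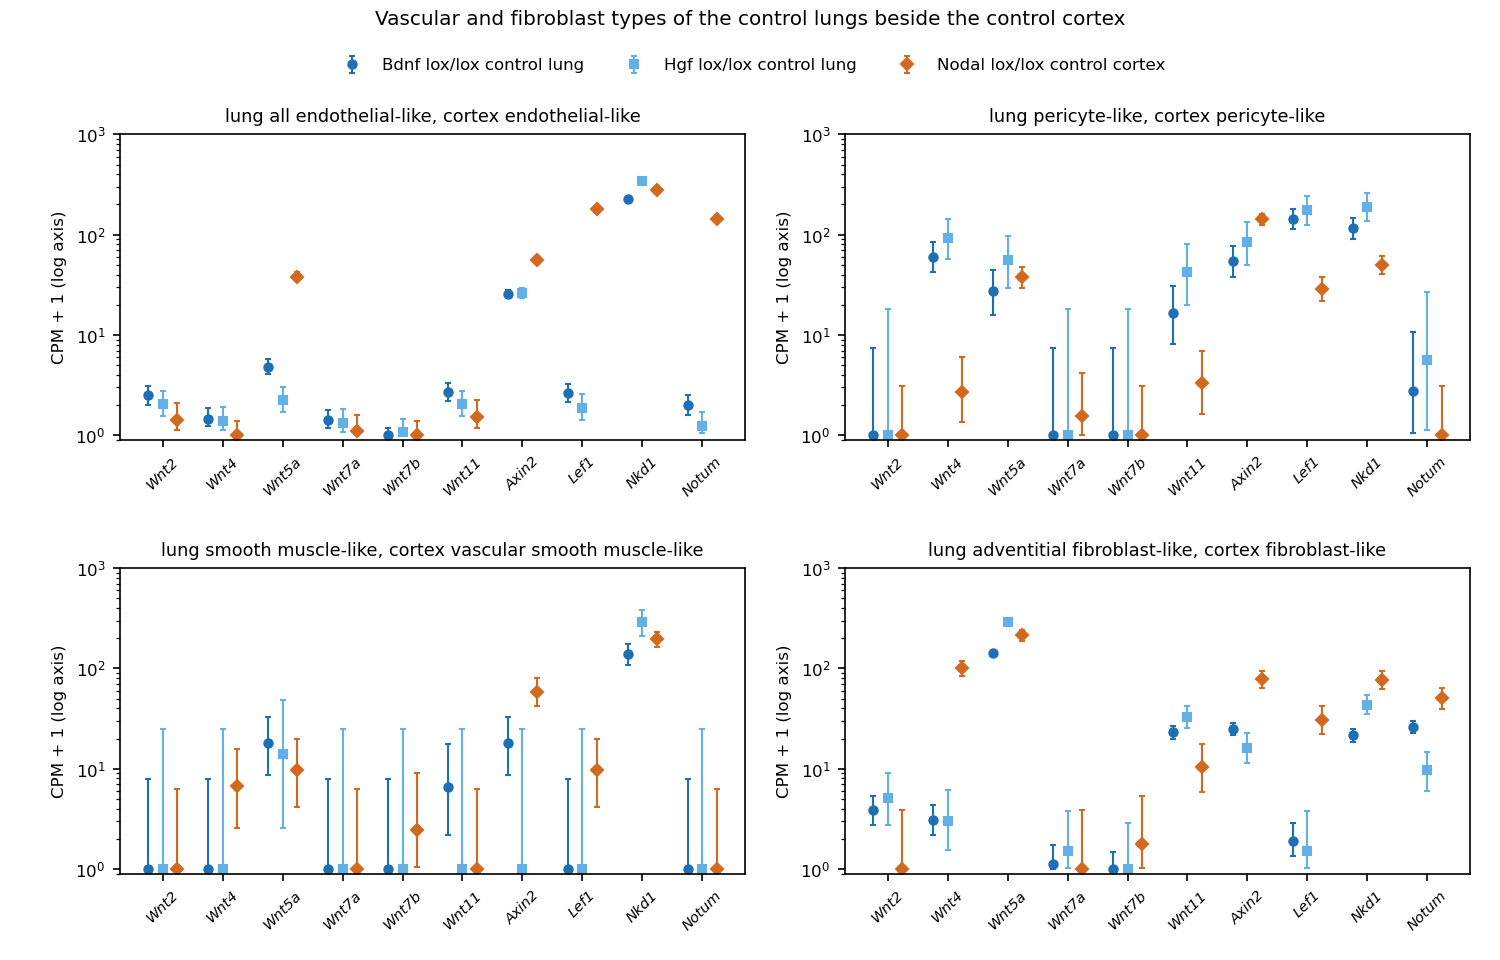
Level of each gene as CPM + 1 on a log axis in 4 matched types of the Bdnf lox/lox control lung (circles), Hgf lox/lox control lung (squares) and Nodal lox/lox control cortex (diamonds), with exact Poisson 95% intervals. In the endothelial panel Lef1 and Notum of the cortex stand apart from both lungs while Nkd1 lies between them, and in the pericyte panel Wnt4, Lef1 and Nkd1 of the cortex lie below both.

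Genes with the most similar pattern were sought by Pearson correlation of log2(CPM + 1) over the 41 cell types of the 3 control libraries, among 19307 genes. The types of 1 library share its depth and free RNA, so the values are a description. Wnt2 was most like Gm26885 (0.85), Colq (0.81) and Gm34921 (0.78), and Wnt4 most like Pja1 (0.76), 2010204K13Rik (0.70) and Rab36 (0.69). For Wnt5a the first genes were Armh4 (0.83), Adamts5 (0.78) and Medag (0.78), of which Adamts5 encodes a proteoglycan-cleaving protease. Wnt7a was followed by Lrtm2 (0.86), Gm43843 (0.81) and Hs2st1 (0.77) and Wnt7b by Nudt11 (0.85), Arhgef4 (0.85) and Sdsl (0.84). Wnt11 had Ttc30b (0.73), Wnt5a (0.72) and Cldn2 (0.71). Among targets, Axin2 had Apcdd1 (0.75), Snai2 (0.74) and Plat (0.74), and Apcdd1 encodes a membrane-bound Wnt inhibitor. Lef1 had Ttyh2 (0.73), Gatm (0.69) and Pkmyt1 (0.68), Nkd1 had Tbx3 (0.81), Ccser2 (0.80) and Fermt2 (0.79) and Notum had Steap3 (0.71), Slc38a5 (0.70) and Ptges (0.64). With rank correlation 8 of these 30 genes stayed among the first 3.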

How the data were processed

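According to their methods, the authors aligned reads to GRCm39 and used STARsolo for UMI counting (STAR 2.7.10a in the submitters' processing notes), without a cell filter and with multi-mapping reads shared by expectation maximization. The methods name Gencode vM33, and the data availability statement another release. The deposited matrices hold estimated counts of UMIs without normalization. Between 8.50% and 9.95% of entries are fractional, and sums were rounded to whole UMIs for exact intervals. Library totals ran from 33889545 to 186701379 UMIs.

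Barcodes above 3 scaled median absolute deviations in mitochondrial share or above the 99.5 percentile of UMIs were removed. Cells were gated by sums of 193 marker genes, scaled in each library, into 17 lung and 12 cortex classes. Mixed barcodes were removed in place of a doublet caller. These had at least 3 markers of another class and a score for it of at least 0.6 of their best score. For related classes, such as pericytes and fibroblasts, the limit was 0.8 of the best score. Endothelial with lymphatic scores did not count as mixed. Gate limits were set after marker levels and cell numbers had been seen, and without regard to the values of the genes described. Types with at least 20 cells were used (16 or 17 per lung and 8 per cortex library). UMIs were summed per type and expressed as CPM of the type's own sum, with exact Poisson intervals. Ratios carry the conditional exact (Clopper-Pearson) interval, and a floor of 3 UMIs replaced a count of 0. Free RNA was estimated from barcodes with 20 to 200 UMIs. Python 3.11.15, numpy 2.4.6, scipy 1.17.1, pandas 2.3.3 and matplotlib 3.10.9 were used, and the calculations were tested on simulated data.

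The 10 genes, the 73 pathway genes and the markers were chosen with earlier results of these data known. Named genes were the 10 genes in every type, per pathway list up to 4 genes with the highest control level, up to 6 a comparison past 2-fold in endothelial, fibroblast or alveolar epithelial gates, and the first 3 genes most like each of the 10. Alternatives changed the UMI minimum, gate, mixed barcodes, mitochondrial filter, scaling, fractional entries, free RNA, count minimum and correlation. Promoters came from the GRCm39 sequence and Gencode vM39 starts. The authors' clusters and tests were not used here.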

Additional observations from a re-analysis of the deposited data

Results flagged for a closer look

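These genes had log2 ratios of iPCKO over control that lay on opposite sides of 0, each at least 0.5 in size with an interval clear of 0, in 2 cell types of the same pair. The difference between the types was not tested, since each condition is 1 library. In the Bdnf pair Axin2 was at 1.20 (0.38 to 2.09) in aCap-like and -0.61 (-1.01 to -0.22) in arterial-like cells, Notum at 1.41 (0.45 to 2.46) in AT1-like and -0.89 (-1.51 to -0.28) in myofibroblast-like cells, Wnt2 at 1.51 (0.68 to 2.41) in venous-like and -1.34 (-2.72 to -0.12) in adventitial fibroblast-like cells, and Wnt5a at 1.35 (1.07 to 1.63) in AT2-like and -0.57 (-1.13 to -0.02) in AT1-like cells. With mixed barcodes kept, Notum in AT1-like cells was at 0.43. The AT1-like value of Wnt5a turned to 0.98 when mixed barcodes were kept and was -2.0003 after free RNA subtraction. In the Hgf pair Lef1 was at 2.71 (1.21 to 4.67) in gCap-like and -1.61 (-2.58 to -0.72) in immune-like cells, Nkd1 at 1.18 (0.92 to 1.44) in AT1-like and -1.10 (-1.65 to -0.54) in myofibroblast-like cells, Wnt5a at 0.82 (0.08 to 1.54) in AT2-like and -1.75 (-2.30 to -1.22) in ciliated-like cells, and Wnt7b at 2.68 (1.39 to 4.23) in AT1-like and -1.998 (-3.06 to -1.08) in AT2-like cells. The immune-like value of Lef1 turned to 0.62 under a stricter gate, and the AT2-like value of Wnt5a turned to -0.14 when mixed barcodes were kept. Own markers of myofibroblast-like cells were lower in Hgf iPCKO than in Hgf control lung (10508 and 17020 CPM). In the Nodal pair Axin2 was at 0.70 (0.52 to 0.88) in astrocyte-like and -0.68 (-1.16 to -0.21) in fibroblast-like cells.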

How the results depend on the processing

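No paired analysis was possible because each group has 1 library and the groups share no second replicate number. The count of values past 2-fold went from 12 to 19 in the Bdnf pair and from 17 to 28 in the Hgf pair when the minimum was 10 instead of 20 UMIs over both libraries, which admits more combinations. Over all alternatives it ranged from 9 to 19 in the Bdnf, 15 to 28 in the Hgf and 3 to 4 in the Nodal pair. Rank correlation kept 8 of the 30 most similar genes, and the cause was not tested. Lef1 in immune-like cells of the Hgf pair turned from -1.61 to 0.62 with a stricter gate, which leaves fewer cells. Of 38 values past 2-fold, with pooled fibroblast and endothelial types included, 27 stayed past it in the same direction under every alternative run. Keeping mixed barcodes ended the most of these, leaving 30. Whole entries only, no mitochondrial filter, lower minimum UMIs and free RNA subtraction left 37 each, median-of-ratios scaling and 2 times the minimum UMIs left 36, and a stricter gate left 35. Wnt2 in alveolar fibroblast-like cells of the Hgf pair was at -0.78 with a lower minimum and -3.11 with 2 times the minimum. Depth limits low genes most: a value with fewer than 20 UMIs over both libraries was not compared, and 1 library per genotype gives no error beyond counting.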

Other observations

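The 73 other genes of the Wnt pathway that were listed by role give the setting of these ligands and targets. Of receptors and co-receptors, Reck reached 489.6 CPM in Hgf control pericyte-like cells, Fzd4 444 CPM in Hgf control gCap-like cells, Ryk 429 CPM in Bdnf control myofibroblast-like cells and Lrp6 429 CPM in cortex border macrophage-like cells, each the highest control type of its gene. Wls, which carries Wnt proteins to the cell surface, was highest in cortex pericyte-like cells (616 CPM), and Porcn, which attaches their lipid, in Bdnf control ciliated-like cells (293 CPM). AT1-like cells of the Hgf control held the highest levels of the ligands Wnt10b (99.6 CPM) and Wnt3a (88.9 CPM), the type in which Wnt7a was found. Wnt5b was highest in cortex smooth muscle-like cells (124 CPM) and Wnt9a in Bdnf control mesothelial-like cells (91.8 CPM). The R-spondins, which prolong Wnt signalling, were led by Rspo3 in cortex fibroblast-like cells (246 CPM) and Rspo1 in Bdnf control mesothelial-like cells (218 CPM), and their receptor Lgr6 by Hgf control myofibroblast-like cells (326 CPM). Secreted inhibitors were led by Dkk3 at 779 CPM in Hgf control and Wif1 at 452 CPM in Bdnf control myofibroblast-like cells and Sfrp1 at 396 CPM in mesothelial-like cells. The membrane inhibitor Apcdd1 was highest in cortex endothelial-like cells (1089 CPM), where Lef1 and Notum were also highest, and the nuclear cofactor gene Bcl9l was highest in Hgf control myofibroblast-like cells (362 CPM).

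In the Bdnf pair 46 of 716 combinations of these genes were past 2-fold higher and 10 lower, with a median of 0.07, beside 3.92% and 2.49% over all genes. The largest in endothelial, fibroblast or alveolar epithelial gates included the secreted inhibitors Sfrp2 in adventitial fibroblast-like cells (4.12 to 37.1 CPM, log2 3.17, interval 2.64 to 3.75) and AT2-like cells (3.06, interval 2.18 to 4.07), Frzb in arterial-like (3.41, interval 1.39 to 6.54) and adventitial fibroblast-like cells (2.57, interval 1.74 to 3.51), and the Wnt5a receptor gene Ror2 in AT1-like cells (3.32, interval 1.84 to 5.27). Most of these higher values rest on low levels. Sfrp2 in AT2-like cells had 12 and 83 UMIs (0.229 and 1.91 CPM). Frzb had 2 and 23 UMIs in arterial-like cells (0.739 and 7.83 CPM) and 14 and 77 in adventitial fibroblast-like cells (1.80 and 10.7 CPM). Ror2 in AT1-like cells had 4 and 38 UMIs (0.354 and 3.53 CPM). The part of other cell types and free RNA in these values was not tested. Sfrp1 was lower in endothelial-like cells outside the named subtypes (117 to 18.9 CPM, -2.63, interval -3.04 to -2.24). The Hgf pair had 31 of 546 higher and 49 lower, with a median log2 ratio of -0.00281, beside 7.09% and 7.73% over all genes. Its largest values in endothelial, fibroblast or alveolar epithelial gates were lower. Dkk2 had 35 and 1 UMIs in other endothelial-like cells (-5.58, interval -10.93 to -3.01) and 102 to 12.5 CPM in arterial-like cells (-3.03, interval -3.87 to -2.28). Sfrp2 in arterial-like (-4.45, interval -6.37 to -3.03), Sfrp1 in venous-like (-3.37, interval -4.44 to -2.45), Wnt2b in aCap-like (-4.54, interval -9.90 to -1.92) and Lgr5 in myofibroblast-like cells (-3.40, interval -5.18 to -1.93) were also lower. In control and iPCKO cells Sfrp2 had 66 and 4 UMIs, Sfrp1 74 and 11, Wnt2b 23 and 1 and Lgr5 19 and 5. The part of other cell types and free RNA in these values of the Hgf pair was not tested. Of the other feedback targets in this pair, 10 of 61 combinations were higher and 17 lower. Chosen after their values were seen, Ccnd1, which encodes cyclin D1, was lower in gCap-like (-2.17, interval -2.39 to -1.96) and aCap-like cells (-1.66, interval -1.84 to -1.48). Apcdd1 was higher in both (1.82 (1.40 to 2.27) and 1.70 (0.90 to 2.58)). These shifts were not limited to capillary types. Ccnd1 was also lower in arterial-like (-2.56), AT2-like (-2.19), other endothelial-like (-1.95) and venous-like cells (-1.28). Apcdd1 was also higher in other endothelial-like (2.24), arterial-like (1.59) and AT2-like cells (1.49). Axin2 stood at -0.11 in arterial-like, 0.28 in venous-like, 0.52 in other endothelial-like and 0.53 in AT2-like cells. In the Nodal pair 9 of 314 were higher and 12 lower, beside 2.6% and 2.99%, and fibroblast-like cells had Fzd10 at -1.24 (-2.56 to -0.04) and Dkk2 at -1.09 (-2.22 to -0.03).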
